A study of Rattus norvegicus with 63 samples.

Results

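The transcripts described here encode the proteins that carry out and steer pre-mRNA splicing in the liver of rats dosed with hepatocarcinogens and reference compounds. The set comprised every gene whose single array annotation symbol begins with Srsf, Hnrnp, Sf3a, Sf3b, Snrp, Srrm, Prpf or Ccnl, together with Clk1, Clk2, Clk3, Clk4, Tra2a, Tra2b, U2af2 and Akap8l. This gave 61 of the 10411 singly annotated genes on the array, read by 86 probe sets, and where a gene had several, the one with the highest average level in the 63 arrays stood for it. No probe set carried U2af1 as its one symbol, and probe sets that share Hnrnpk, Snurf and Snrpn, Snrpc, Snrpg or Srsf3 with another symbol were left out. By role the members were 9 SR proteins, 16 hnRNP proteins, 9 proteins of the U2 particle and U2AF, 8 core snRNP proteins, 12 Prpf and Srrm proteins, and 7 regulators (the 4 Clk kinases, the L cyclins Ccnl1 and Ccnl2, and Akap8l).

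The study profiled liver mRNA of young adult male Wistar Hanover rats after daily gastric gavage, on the Affymetrix RAE230A array, to set nongenotoxic and genotoxic hepatocarcinogens apart from compounds that do not cause liver tumours. Each of the 21 groups held 3 arrays, 1 per animal, and the treated animals were those of each treatment group picked because histopathology showed some change in the liver, so they were not a random draw. In total 45 arrays came from 15 compounds and 18 from 6 vehicle control sets, and the labels tie each compound to 1 of these sets. Methylcellulose (MC) set 1 served 6 compounds, namely Acetamide (AA, 3000 mg/kg/d for 14 days), Dehydroepiandrosterone (DHEA, 600 mg/kg/d for 14 days), Methylcarbamate (Mcarb, 400 mg/kg/d for 14 days), Methapyrilene HCl (MPy, 60 mg/kg/d for 7 days), Thioacetamid (TAA, 19.2 mg/kg/d for 7 days) and Wy-14643 (Wy, 60 mg/kg/d for 3 days). MC set 2 served Cefuroxime (CFX, 250 mg/kg/d) and Nifedipine (Nif, 3 mg/kg/d), both given for 14 days. MC set 5 served Diethylstilbestrol (DES, 10 mg/kg/d for 3 days), Ethionine (ETH, 200 mg/kg/d for 14 days) and Piperonylbutoxide (PBO, 1200 mg/kg/d for 3 days). MC set 6 served Phenobarbital sodium (PB, 14 days, with no dose in the labels). Corn oil (CO) set 3 was sampled at 7 days and served C.I Direct Black (CIDB, 146 mg/kg/d) and dimethylnitrosamine (DMN, 4 mg/kg/d), both given for 7 days, and CO set 4 was sampled at 14 days and served Cyproterone acetate (CPA, 100 mg/kg/d for 14 days). The labels give 14 days for every MC set, whereas the study's methods describe controls matched in time, so the days of these controls are not settled. If the labels hold, treated and control animals of MPy, TAA, Wy, DES and PBO differed in days, and treatment and duration cannot be told apart there. AA, DES, DHEA, ETH, Mcarb, MPy, PB and PBO are labelled nongenotoxic carcinogens, CIDB and DMN genotoxic carcinogens, CFX and Nif non-hepatocarcinogens, and CPA, TAA and Wy are of undefined class.

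Introns are removed by the spliceosome, which is assembled from small nuclear ribonucleoproteins (snRNPs) around the splice sites. SR proteins commonly promote the use of a nearby exon, hnRNP proteins often oppose it, and the Clk kinases phosphorylate SR proteins and so set their activity and their place in the nucleus. Many transcripts of this machinery carry introns or exons whose retention lowers the functional mRNA, so that their own abundance is adjusted by splicing, and loss of individual SR proteins from hepatocytes disturbs liver maturation and metabolism. In whole liver, fewer cells of a type and less RNA per cell cannot be told apart.

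Promoters of the 5 members called in 5 or more compounds are shown because these genes recur through the results, in the order Hnrnpa1, Akap8l, Snrpd3, Ccnl2 and Hnrnpab. Each run covers 250 bases before to 50 bases after the annotated start, 5′ to 3′ on the gene's own strand, from RefSeq on the GRCr8 build, and capitals mark matches, on either strand, to the CCAAT box (CCAAT), the TATA box (TATAAA), the GC box (GGGCGG), the E-box (CACGTG), the ETS core (CCGGAAG) or the cAMP response element (TGACGTCA), none of which contains another. The windows lie at chr7:136253868-136254167 (plus strand) for Hnrnpa1, chr7:12012762-12013061 (minus) for Akap8l, chr20:13144871-13145170 (minus) for Snrpd3, chr5:171699525-171699824 (plus) for Ccnl2 and chr10:36363849-36364148 (minus) for Hnrnpab.
Hnrnpa1: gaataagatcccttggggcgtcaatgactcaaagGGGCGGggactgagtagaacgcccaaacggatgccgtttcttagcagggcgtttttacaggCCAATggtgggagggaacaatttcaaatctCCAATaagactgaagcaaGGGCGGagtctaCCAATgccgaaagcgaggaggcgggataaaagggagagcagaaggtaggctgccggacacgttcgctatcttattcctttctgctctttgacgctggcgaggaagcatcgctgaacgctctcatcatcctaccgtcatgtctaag
Akap8l: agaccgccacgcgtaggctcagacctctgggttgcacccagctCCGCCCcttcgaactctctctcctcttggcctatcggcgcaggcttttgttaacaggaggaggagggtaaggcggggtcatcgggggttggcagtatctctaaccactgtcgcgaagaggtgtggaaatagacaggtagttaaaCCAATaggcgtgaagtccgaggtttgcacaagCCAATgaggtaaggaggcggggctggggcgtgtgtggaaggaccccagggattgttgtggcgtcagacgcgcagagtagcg
Snrpd3: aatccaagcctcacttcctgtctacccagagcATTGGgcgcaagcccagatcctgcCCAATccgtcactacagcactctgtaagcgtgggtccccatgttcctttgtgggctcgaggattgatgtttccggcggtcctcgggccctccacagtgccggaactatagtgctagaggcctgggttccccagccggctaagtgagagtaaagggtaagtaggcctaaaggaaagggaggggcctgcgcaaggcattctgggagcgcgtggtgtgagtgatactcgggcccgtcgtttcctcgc
Ccnl2: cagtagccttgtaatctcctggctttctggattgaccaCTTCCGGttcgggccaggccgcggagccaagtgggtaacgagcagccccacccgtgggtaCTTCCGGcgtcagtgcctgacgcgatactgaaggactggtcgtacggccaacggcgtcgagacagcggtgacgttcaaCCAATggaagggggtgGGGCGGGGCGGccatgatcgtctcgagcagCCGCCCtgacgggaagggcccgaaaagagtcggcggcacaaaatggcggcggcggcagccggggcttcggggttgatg
Hnrnpab: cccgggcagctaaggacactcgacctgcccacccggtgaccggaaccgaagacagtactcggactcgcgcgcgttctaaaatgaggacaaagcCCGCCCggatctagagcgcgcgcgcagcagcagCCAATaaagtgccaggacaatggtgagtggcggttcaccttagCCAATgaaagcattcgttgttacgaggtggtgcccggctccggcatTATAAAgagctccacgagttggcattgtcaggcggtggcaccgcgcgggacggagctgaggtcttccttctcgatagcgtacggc
All 5 windows held CCAAT, with 3 copies in Hnrnpa1, 2 in Akap8l, Snrpd3 and Hnrnpab, and 1 in Ccnl2. GGGCGG occurred in 4 of them but not in that of Snrpd3, TATAAA occurred in that of Hnrnpab alone, and CCGGAAG had 2 matches in that of Ccnl2. Of the 61 members, 57 had a promoter in the table, and those of Sf3b2, Srrm2, Tra2a and U2af2 were not matched. Each member entered once, whereas the 33469 promoters set beside them were all those annotated, not 1 for each gene of the array. The shares thus cover unlike sets. CCAAT was present in 32 of these 57 members (56.1%) and in 37.5% of all 33469 promoters. GGGCGG was present in 35 (61.4%) against 33.1%, CCGGAAG in 14 (24.6%) against 8.7%, and CACGTG in 7 (12.3%) against 6.4%. TATAAA was present in 4 (7.0%) against 14.2%, and TGACGTCA in 1 (1.8%) against 1.8%. These are letter matches in a fixed window, and none of them was tested against the expression values.

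Values were the deposited log2 levels, and a gene is said to have risen or fallen where the adjusted p of the limma fit over all 15866 probe sets was below 0.05. Values ran from 3.96 to 15.11 over the series, and array medians lay between 7.42 and 7.51. The mean correlation of each array with the other arrays of its own group was 0.9886 to 0.9956. Hepatocyte marker genes were bright on average over all arrays, with 11 of 12 measured at a median 99.7th percentile of all genes. The brightest members were Hnrnpa3 (mean 10.87), Hnrnpl (10.86) and U2af2 (10.79), and the dimmest were Prpf38a (5.43), Srsf10 (5.58) and Hnrnph3 (6.46). Brightness depends on the probes, so these values do not rank the transcripts by abundance.

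Ethionine moved the largest number of members, with 17 risen and 6 fallen of 61. These are 27.9% and 9.84% of the members, beside 13.6% of all genes risen and 13.1% fallen, and the median absolute difference was 0.26 for members against 0.14 for all genes. In ETH 4 members changed beyond 2-fold, in AA 1 did, and in the other 13 compounds none did. Piperonylbutoxide gave 5 risen and 10 fallen (7.04% and 8.44% of all genes), and cyproterone acetate gave 1 risen and 9 fallen (3.2% and 5.34%). In these 2 compounds the members' median difference was -0.11 and -0.12, where that of all genes was -0.02 and 0.02. Wy gave 9 risen and 1 fallen (7.67% and 7.38% of all genes), CIDB 8 risen and 1 fallen (8.63% and 6.62%), and Nif 6 risen and none fallen (4.26% and 2.95%). DMN gave 4 risen and none fallen (2.88% and 0.855%), and 54 of its 61 differences were above 0, with a median of 0.14 against 0.0017 for all genes.

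The remaining compounds moved fewer members or moved them both ways. DES gave 5 risen and 5 fallen (6.79% and 9.99% of all genes), and TAA 4 risen and 4 fallen (3.6% and 3.68%). MPy gave 3 risen and 1 fallen (3.49% and 3.31%), DHEA 1 risen and 3 fallen (9.78% and 9.35%), and AA none risen and 2 fallen (1.82% and 1.95%). No member passed the limma threshold in CFX (0% of all genes risen and 0% fallen), in Mcarb (0.932% and 0.25%) or in PB (0.999% and 0.509%). At an unadjusted p below 0.05 these 3 compounds had none up and 1 down, 12 up and 2 down, and 3 up and 3 down, in that order, where all genes had 1.47% up and 2.07% down in CFX, 7.84% and 3.35% in Mcarb, and 6.36% and 7.7% in PB. The median over the members in Mcarb was 0.11 against 0.013 for all genes. Beside their own sets, the compounds were also set against all arrays of their vehicle pooled, where the corn oil pool joins sets of 7 and 14 days. The balance of rises and falls then shifted upwards in several compounds. AA had 3 risen and none fallen (1.63% and 1.6% of all genes), DHEA 8 and 1 (11.9% and 10.5%), TAA 9 and 1 (7.25% and 6.69%), DES 7 and 1 (8.15% and 9.38%), MPy 6 and none (6.98% and 5.28%) and PBO 3 and 4 (8.67% and 7.9%). Mcarb, with no call against its own set, had 14 and none (5.47% and 1.82%), Wy had 23 and 1 (11.9% and 12.3%) and ETH 21 and 9 (17.9% and 16.4%). CIDB had 11 and 4 (9.74% and 9.17%), Nif 11 and 1 (7.95% and 6.28%) and DMN 6 and none (3.26% and 1.36%). CPA had 1 and 7 (4.95% and 5.36%), PB none and 2 (1.79% and 2.05%) and CFX none. All falls called against the own set in AA, TAA and MPy were lost, as were 2 of 3 in DHEA, 4 of 5 in DES, 8 of 10 in PBO and 3 of 9 in CPA. Rises were lost as well, 3 of 5 in DES, 3 of 5 in PBO, 3 of 6 in Nif, 1 of 4 in DMN and 1 of 9 in Wy.

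Over the 15 compounds there were 105 member calls, 63 up and 42 down, involving 48 of the 61 members, and 11 members rose in 1 compound and fell in another. The 13 never called were Clk4, Hnrnpa2b1, Prpf38a, Prpf38b, Prpf39, Prpf4b, Sf3a1, Sf3b5, Snrpn, Srrm2, Srsf1, Srsf11 and U2af2. Each comparison was refitted with each of its 6 arrays left out in turn, and several of these counts then changed by more than 1.5 times (animals are numbered as in the labels). Such a fit holds fewer animals, so a call can be lost while the difference stays as large. A lost call therefore does not show that 1 animal carried the difference. Without 1 of 5 arrays (CO set 4 animals 1, 2 and 3, CPA animals 1 and 2) CPA kept 4 to 6 calls instead of 10, without MC set 5 animal 8 or DES animal 2 DES kept 5 instead of 10, and without MC set 5 animal 8, PBO animal 2 or PBO animal 3 PBO kept 7 to 9 instead of 15. CIDB had 15 calls without CO set 3 animal 4, and without the same array DMN had 8, whereas DMN kept 1 or 2 without any of the other 5 arrays. Wy kept 4 to 6 without MC set 1 animal 6, Wy animal 2 or Wy animal 3, TAA 3 to 5 without MC set 1 animal 4 or 5 or TAA animal 1 or 3, and MPy 1 or 2 without MC set 1 animal 4 or 5 or MPy animal 1 or 2. Nif kept 3 without MC set 2 animal 10, AA had 4 without AA animal 2, Mcarb had 2 without Mcarb animal 2, and PB had 2 or 1 without MC set 6 animal 2 or 3. ETH stayed at 20 to 24.

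**Figure D1:**
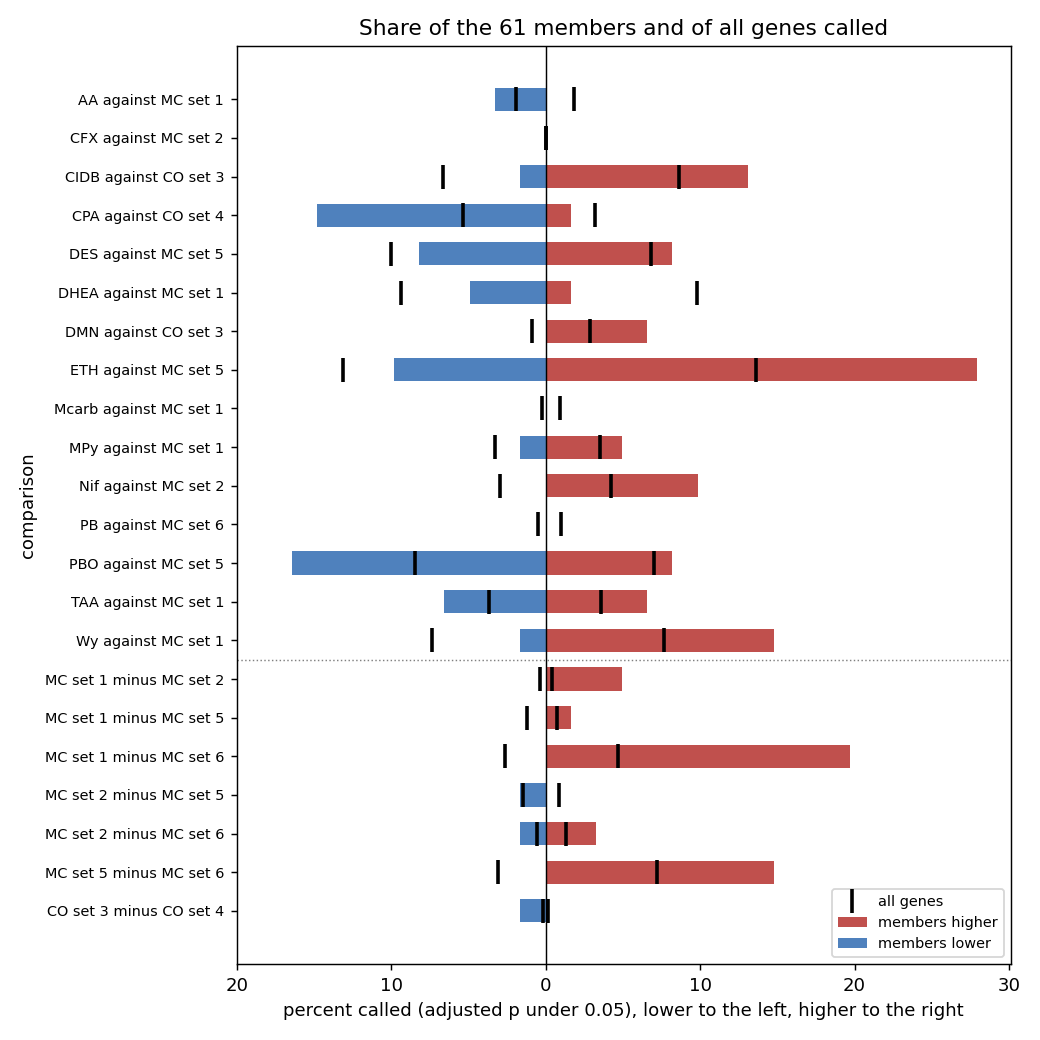
Percent of the 61 members (bars) and of all 10411 singly annotated genes (black ticks) called lower (left) or higher (right) at a limma adjusted p below 0.05, for the 15 compounds against their own vehicle sets and, under the dotted line, for pairs of vehicle sets, 3 arrays against 3 throughout. In ETH 27.9% of members and 13.6% of all genes rose, and in CPA 14.8% of members and 5.34% of all genes fell.

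**Figure D2:**
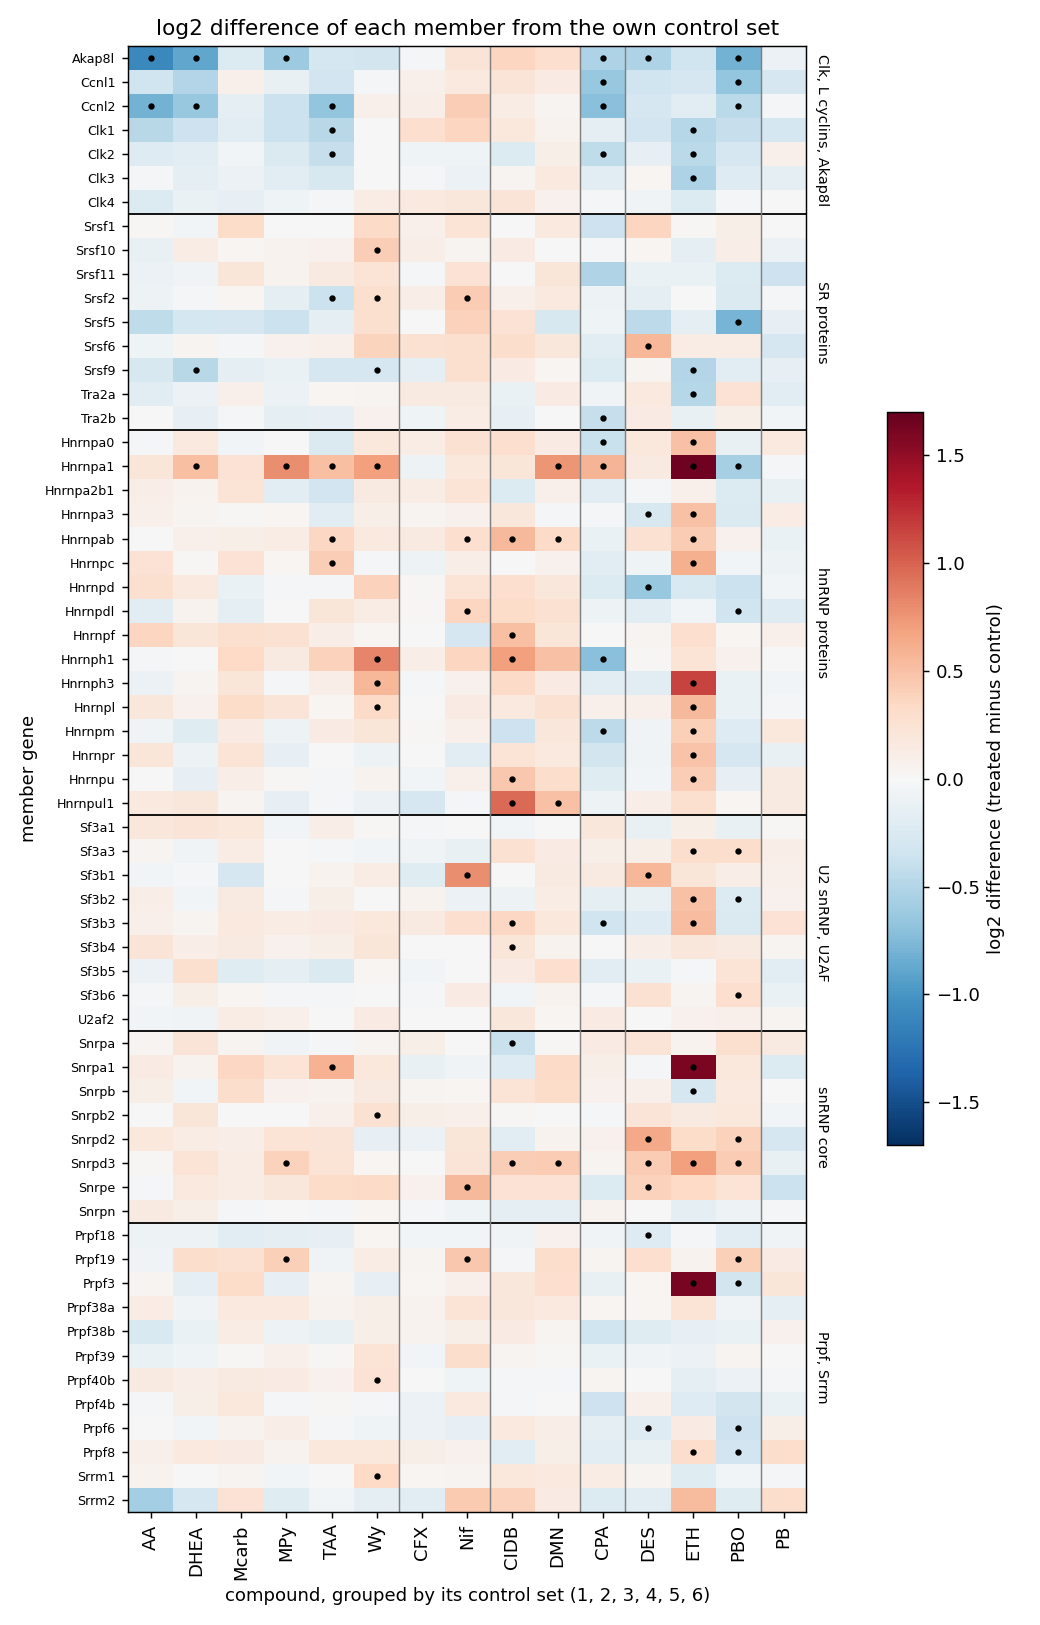
Log2 difference of each member (rows, grouped by role) in each compound (columns) against its own vehicle control set, as the difference of means of 3 arrays, with a black dot where the limma adjusted p was below 0.05. The ETH column holds the 3 differences of 1.6 to 1.66 (Hnrnpa1, Prpf3, Snrpa1), and the rows of Akap8l and Ccnl2 are below 0 in 12 and 10 of 15 compounds.

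Among the regulators, Akap8l, an anchoring protein of the nuclear matrix, fell in 6 compounds and Ccnl2, an L cyclin that pairs with Cdk11 kinases in nuclear speckles, fell in 5, and neither rose in any. In AA the Akap8l levels were 7.72, 7.83 and 8.07, against 9.16, 8.93 and 8.82 in MC set 1. All 3 treated animals were below all 3 controls, the difference was -1.1 (SE 0.17, 2.14-fold lower, adjusted p = 3.54e-05), and the call held with any 1 of the 6 arrays left out. In DHEA the levels were 8.08, 8.06 and 8.13 against the same controls, a difference of -0.88 (SE 0.17, adjusted p = 0.000138) without overlap. In PBO they were 7.80, 7.64 and 7.67 against 8.88, 8.29 and 8.34 in MC set 5, a difference of -0.80 (SE 0.17, adjusted p = 0.000602) without overlap. These 3 calls held in every fit with 1 array left out. In MPy the difference was -0.61 (adjusted p = 0.0183), in CPA -0.53 (adjusted p = 0.0451) and in DES -0.52 (adjusted p = 0.0296), each without overlap. The MPy call was lost without MC set 1 animal 4 (-0.52), MPy animal 1 (-0.62) or MPy animal 2 (-0.58), the CPA call without any array but CPA animal 3 (-0.41 to -0.58), and the DES call without DES animal 1 (-0.38), DES animal 2 (-0.52) or MC set 5 animal 7 (-0.33). The remaining probe sets of Akap8l did not all follow. In AA the second differed by -0.62 (adjusted p = 0.000209) and the third by 0.037 (adjusted p = 0.846), and in PBO they differed by -0.30 and -0.092 (adjusted p = 0.0504 and 0.515).

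Ccnl2 fell by 0.80 in AA (SE 0.15, adjusted p = 0.000363), where the levels were 9.33, 9.26 and 9.47 against 10.26, 10.28 and 9.93 in MC set 1. The DHEA animals, at 9.26, 9.45 and 9.84, and the TAA animals, at 9.43, 9.67 and 9.37, were below the same 3 controls without overlap, by 0.65 and 0.67 (adjusted p = 0.00109 and 0.00245). In CPA the levels were 9.43, 9.05 and 9.42 against 10.03, 10.07 and 9.95 in CO set 4, a difference of -0.72 (SE 0.15, adjusted p = 0.000916). These 4 calls held with any 1 array left out. The PBO difference of -0.46 (adjusted p = 0.0253) was lost without MC set 5 animal 7 (-0.35) or 8 (-0.44) or PBO animal 2 (-0.42) or 3 (-0.46). Ccnl1, the other L cyclin, differed by -0.66 in PBO and -0.64 in CPA (adjusted p = 0.0276 and 0.05), and in both compounds 1 control animal lay among the treated ones. Its CPA call was kept only without CO set 4 animal 3, and its PBO call only without MC set 5 animal 9 or PBO animal 1. Against the pooled controls the CPA call was lost (-0.38, adjusted p = 0.256).

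For these 2 genes the level of the control set is given beside the differences. A difference from MC set 1 alone cannot tell a high control set from an effect of the compound, and this was not tested. Of all 21 groups, MC set 1 had the highest mean level of Akap8l (8.97 ± 0.18, SD, n = 3), and for Ccnl2 only Wy (10.25 ± 0.23) was above MC set 1 (10.16 ± 0.20), a gap within the spread. AA, DHEA, MPy and TAA were all compared with these same 3 arrays. Against all 12 methylcellulose arrays pooled, Akap8l differed by -0.54 in AA (adjusted p = 0.0858), -0.33 in DHEA (adjusted p = 0.225), -0.059 in MPy (adjusted p = 0.894) and -0.43 in DES (adjusted p = 0.108), so that these 4 calls were lost. The PBO call was kept at -0.71 (adjusted p = 0.00421), and PBO had the lowest Akap8l mean of all groups, at 7.70 ± 0.083. Ccnl2 lost its calls in AA (-0.34, adjusted p = 0.29), DHEA (-0.18, adjusted p = 0.494), TAA (-0.21, adjusted p = 0.466) and PBO (-0.42, adjusted p = 0.0844). In CPA, against the 6 corn oil arrays pooled, neither gene passed (Akap8l -0.25, adjusted p = 0.483, and Ccnl2 -0.37, adjusted p = 0.207). That pool joins CO set 3 (7 days) with CO set 4 (14 days, as CPA), in which Ccnl2 had means of 9.32 and 10.02. The pooled value therefore mixes in a difference in days.

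Of the Clk kinases, Clk1, Clk2 and Clk3 fell in ETH. Clk3 was at 7.82, 7.81 and 8.14 there and at 8.39, 8.50 and 8.46 in MC set 5, a difference of -0.53 (SE 0.10, adjusted p = 7.01e-05). Clk2 was at 7.20, 7.19 and 7.13 against 7.71, 7.70 and 7.47, a difference of -0.45 (SE 0.11, adjusted p = 0.00162). Clk1 was at 8.82, 8.88 and 8.81 against 9.32, 9.03 and 9.62, a difference of -0.49 (SE 0.15, adjusted p = 0.0137). None of the 3 overlapped with the controls, and the Clk3 and Clk2 calls held without any 1 array, whereas that of Clk1 was lost without MC set 5 animal 9 (-0.34). Clk4 differed by -0.23 in ETH (adjusted p = 0.0712) and passed in no compound, its differences lying between -0.23 and 0.22. Clk1, Clk3 and Clk4 had their lowest group mean in ETH, but for Clk1 (8.84 ± 0.043) that of CO set 3 (8.87 ± 0.17) and for Clk4 (7.14 ± 0.077) that of CO set 3 (7.22 ± 0.17) lay within the spread. Clk2 was lowest in CPA (7.15 ± 0.10), ahead of ETH (7.17 ± 0.038) by less than the spread, and fell there by 0.43 (adjusted p = 0.0104), a call lost without CO set 4 animal 3 (-0.32) or CPA animal 1 (-0.37). In TAA Clk2 differed by -0.39 (adjusted p = 0.025) and Clk1 by -0.47 with overlap (adjusted p = 0.049). Both TAA calls were lost without MC set 1 animal 4 or 5 or TAA animal 1 or 3, at values of -0.30 to -0.41 and -0.31 to -0.47, and neither passed against the pooled controls. As a group the 7 regulators had 3 falls in ETH (median -0.34, beside 13.1% of all genes fallen) and 4 in CPA (median -0.43, beside 5.34%). They had 3 in PBO (median -0.39, beside 8.44%) and 3 in TAA (median -0.33, beside 3.68%). In all of these compounds, none of the 7 was above 0. None was above 0 in AA (2 falls, median -0.34), DHEA (2 falls, median -0.35) or MPy (1 fall, median -0.245) either. Of all genes, 1.95% fell in AA, 9.35% in DHEA and 3.31% in MPy. AA, DHEA, MPy and TAA share MC set 1, in which all 7 were above MC sets 2, 5 and 6 (median 0.40, 0.20 and 0.46), and against the pooled controls none of the regulators' falls in these 4 compounds was kept. All 7 were above 0 in DMN (median 0.095), where most of the other members were too, and none of the 7 passed.

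**Figure D3:**
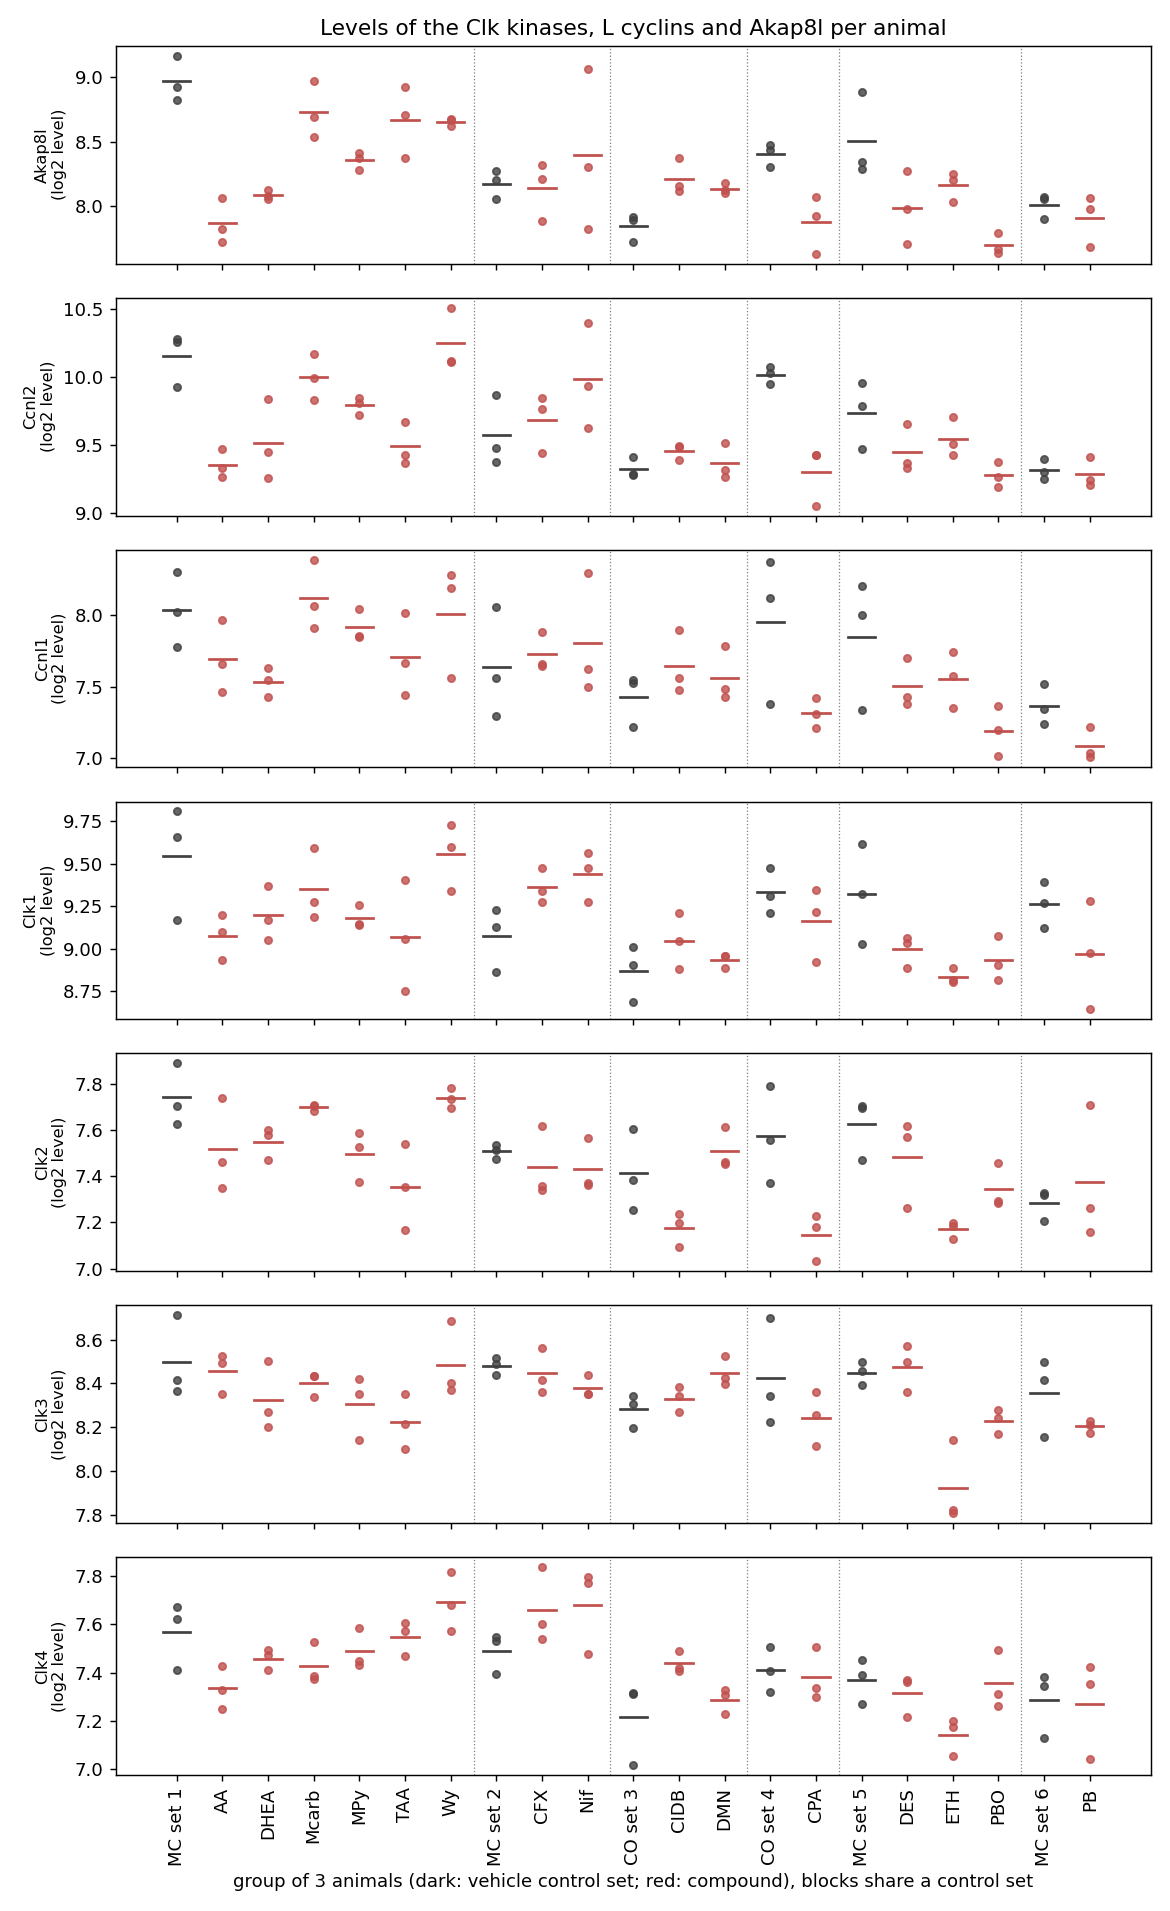
Log2 level of each regulator in every animal (points) with the group mean (bar), for all 21 groups of 3 animals, in blocks that share a control set. Akap8l was highest in MC set 1 (mean 8.97) and lowest in PBO (7.70), and Clk3 was lowest in ETH (7.92).

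SR proteins moved both ways, with 3 calls in Wy and at most 2 in any other compound. Srsf9, a small SR protein, fell in DHEA, ETH and Wy. Its levels were 8.19, 8.07 and 8.23 in ETH against 8.79, 8.53 and 8.66 in MC set 5 (-0.50, SE 0.095, adjusted p = 5.02e-05), and 8.04, 8.30 and 8.21 in DHEA against 8.65, 8.58 and 8.73 in MC set 1 (-0.47, SE 0.095, adjusted p = 0.000247). Neither overlapped and both held without any 1 array, while the Wy difference of -0.29 (adjusted p = 0.0348) was lost without MC set 1 animal 4 (-0.29) or 6 (-0.25) or Wy animal 2 (-0.26) or 3 (-0.27). Srsf5, whose transcript is induced early in regenerating liver, was at 9.68, 9.58 and 9.47 in PBO against 10.88, 10.27 and 9.96 in MC set 5. All treated animals were below the controls, which were themselves spread from 9.96 to 10.88, and the difference was -0.79 (SE 0.20, adjusted p = 0.00327), lost without MC set 5 animal 7 (-0.53) and against the pooled controls (-0.44, adjusted p = 0.0733). Srsf6 was at 9.41, 9.59 and 9.96 in DES against 9.18, 9.15 and 8.93, a rise of 0.56 (SE 0.15, adjusted p = 0.00547) that was lost without DES animal 3 (0.41). Srsf2, which acts in both constitutive and regulated splicing, rose in Nif by 0.43 (levels 10.77, 10.71 and 10.66 against 10.19, 10.35 and 10.31, adjusted p = 0.00176) and held in every fit without 1 array, but not against the pooled controls (0.23, adjusted p = 0.0864). In TAA it differed by -0.36 (levels 10.34, 10.37 and 10.32 against 10.71, 10.77 and 10.65, adjusted p = 0.0126), and this call was lost without MC set 1 animal 5 (-0.33) or TAA animal 3 (-0.35), and against the pooled controls (-0.14, adjusted p = 0.344). Srsf10, which turns into a repressor on dephosphorylation, rose in Wy by 0.42 (SE 0.080, adjusted p = 0.000167) with no overlap and the same sign in its 3 probe sets, from the second lowest mean level of all members.

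The Tra2 proteins bind purine-rich exonic elements. Tra2a passed only in ETH, at 6.21, 6.29 and 5.67 against 6.82, 6.16 and 6.66, a difference of -0.49 (SE 0.14, adjusted p = 0.00808). Treated and control animals overlapped, and the call was lost without ETH animal 3 (-0.29) or MC set 5 animal 7 (-0.35). Tra2b passed only in CPA, with a difference of -0.39 and overlap (adjusted p = 0.0345), and its differences elsewhere lay between -0.17 and 0.14.

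The hnRNP proteins package nascent transcripts and often repress exons. In ETH 10 of the 16 rose and none fell, with a median of 0.43, beside 13.6% of all genes risen and 13.1% fallen. In CIDB 5 rose (8.63% of all genes), in Wy 4 (7.67%), in DMN 3 (2.88%) and in TAA 3 (3.6%). Falls were called too, among them those of Hnrnph1 and Hnrnpm in CPA, where Hnrnpa1 rose (5.34% of all genes fallen and 3.2% risen). Hnrnpa1, which represses exons and also takes part in mRNA export, rose in 7 compounds and fell in 1. Its levels in ETH were 9.47, 9.42 and 9.41 against 7.98, 7.57 and 7.77 in MC set 5. The ETH animals stood above every other animal of the series, and the difference was 1.66 (SE 0.16, 3.17-fold higher, adjusted p = 6.37e-12). In MPy the levels were 8.42, 8.35 and 8.20 against 7.59, 7.46 and 7.56 in MC set 1 (0.79, adjusted p = 0.000537), in Wy 7.84, 8.51 and 8.36 against the same controls (0.70, adjusted p = 0.00104), and in DMN 8.03, 8.14 and 8.17 against 7.63, 7.24 and 7.21 in CO set 3 (0.75, adjusted p = 0.00169). These 4 rises showed no overlap and held with any 1 array left out. The rises in CPA (0.58, adjusted p = 0.0124), TAA (0.51, adjusted p = 0.0354) and DHEA (0.51, adjusted p = 0.0171) also showed no overlap, but their calls did not hold in every fit with 1 array left out. The CPA call was lost without CO set 4 animal 1 (0.55) or CPA animal 3 (0.36), the DHEA call without DHEA animal 1 (0.45), DHEA animal 3 (0.47) or MC set 1 animal 5 (0.47), and the TAA call without any array but TAA animal 3 (0.47 to 0.54). All 7 rises were kept against the controls pooled by vehicle. In PBO the levels of 7.25, 7.31 and 7.07 were below the controls by 0.56 (adjusted p = 0.00893), a call lost without MC set 5 animal 7 (-0.46) or PBO animal 3 (-0.49) and also against the pooled controls (-0.26, adjusted p = 0.247).

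The 3 probe sets annotated to Hnrnpa1 disagreed. In ETH the one used here differed by 1.66, the second by 1.56 (adjusted p = 6.6e-12) and the third by -0.060 (adjusted p = 0.812). In AA, where the gene as represented here was not called (0.21, adjusted p = 0.484), the third probe set fell by 0.61 (adjusted p = 0.00558). Hnrnpu, a scaffold-associated protein, showed the same split in ETH, with 0.42, 1.31 and -0.38 (adjusted p = 0.0038, 9.78e-12 and 0.00336), and the 4 probe sets of Hnrnpa3 differed there by 0.50, 0.14, 0.24 and -0.065, of which only the first passed (adjusted p = 3.92e-05). Probe sets of 1 gene can read different transcript ends or isoforms, and which of these applied was not tested.

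Hnrnph3 and Hnrnph1 bind G-rich elements. Hnrnph3 was at 7.21, 7.32 and 7.58 in ETH against 6.42, 5.87 and 6.37 (1.15, SE 0.14, adjusted p = 4.18e-09), and at 7.00, 7.25 and 7.07 in Wy against 6.62, 6.46 and 6.55 (0.56, SE 0.14, adjusted p = 0.00262), without overlap in either. Hnrnph1 rose in Wy, at 10.13, 10.58 and 10.37 against 9.58, 9.62 and 9.41 (0.82, SE 0.15, adjusted p = 9.72e-05), and in CIDB, at 9.88, 9.73 and 10.09 against 9.49, 9.09 and 9.04 (0.69, SE 0.15, adjusted p = 0.000984). In CPA it fell, at 8.57, 8.43 and 8.65 against 9.38, 9.04 and 9.36 (-0.71, SE 0.15, adjusted p = 0.00169). The CPA animals were the lowest of the whole series, and all 5 of these calls held without any 1 array.

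Hnrnpul1, which interacts with the DNA damage response, was raised in both genotoxic carcinogens. In CIDB its levels were 9.34, 8.88 and 9.50 against 8.36, 8.33 and 8.16 in CO set 3 (0.96, SE 0.13, 1.95-fold, adjusted p = 3.64e-07), and in DMN 8.73, 8.78 and 8.83 against the same controls (0.50, SE 0.13, adjusted p = 0.0229). Neither overlapped, and the CIDB call held without any 1 array, whereas the DMN call was kept only without CO set 3 animal 4. Hnrnpab, a binder of AU-rich and promoter sequences, rose in CIDB (0.55, adjusted p = 2.03e-05), ETH (0.44, adjusted p = 0.000288), TAA (0.35, adjusted p = 0.015), DMN (0.32, adjusted p = 0.0387) and Nif (0.28, adjusted p = 0.0498). Its levels were 11.17, 11.01 and 11.37 in CIDB against 10.82, 10.54 and 10.54, and 10.96, 11.07 and 11.17 in ETH against 10.63, 10.66 and 10.61. There was no overlap in any of the 5, but the Nif call was lost whichever array was left out (0.25 to 0.32), the DMN call without any but CO set 3 animal 4 (0.28 to 0.35), and the TAA call without MC set 1 animal 5 (0.33) or 6 (0.34) or TAA animal 2 (0.31). Hnrnpc, which binds U-rich tracts, rose in ETH (10.43, 10.45 and 10.26 against 9.93, 9.71 and 9.70, 0.60, adjusted p = 4.83e-07) and in TAA (10.26, 10.28 and 10.36 against 9.91, 9.90 and 9.83, 0.42, adjusted p = 0.00151), without overlap and in every fit without 1 array. In CIDB Hnrnpf rose by 0.51 (adjusted p = 0.00225) and Hnrnpu by 0.46 (adjusted p = 0.00308, lost without CO set 3 animal 6 at 0.37). Hnrnpl rose by 0.33 in Wy (adjusted p = 0.00647, lost without Wy animal 2 at 0.22), and Hnrnpdl by 0.36 in Nif (adjusted p = 0.0316, lost without MC set 2 animal 10 at 0.33, MC set 2 animal 11 at 0.36 or Nif animal 2 at 0.29). Members of the group also fell. Hnrnpd, a binder of AU-rich elements, fell in DES from 8.51, 8.22 and 7.94 to 7.38, 7.75 and 7.62 (-0.64, SE 0.15, adjusted p = 0.00202) without overlap, and held in every fit without 1 array. MC set 5 had the highest Hnrnpd mean of the 4 MC sets (8.23, against 7.81 to 7.87 in the others), and against the pooled controls the difference was -0.36 (adjusted p = 0.0495). Against the pooled controls Hnrnpa3 in DES (-0.14) and Hnrnpab and Hnrnpdl in Nif (0.13 and 0.21) did not pass. Hnrnpm differed by -0.44 in CPA (adjusted p = 0.0288, kept only without CPA animal 3), and Hnrnpa3 by -0.27 in DES (adjusted p = 0.0366, kept only without DES animal 3).

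**Figure D4:**
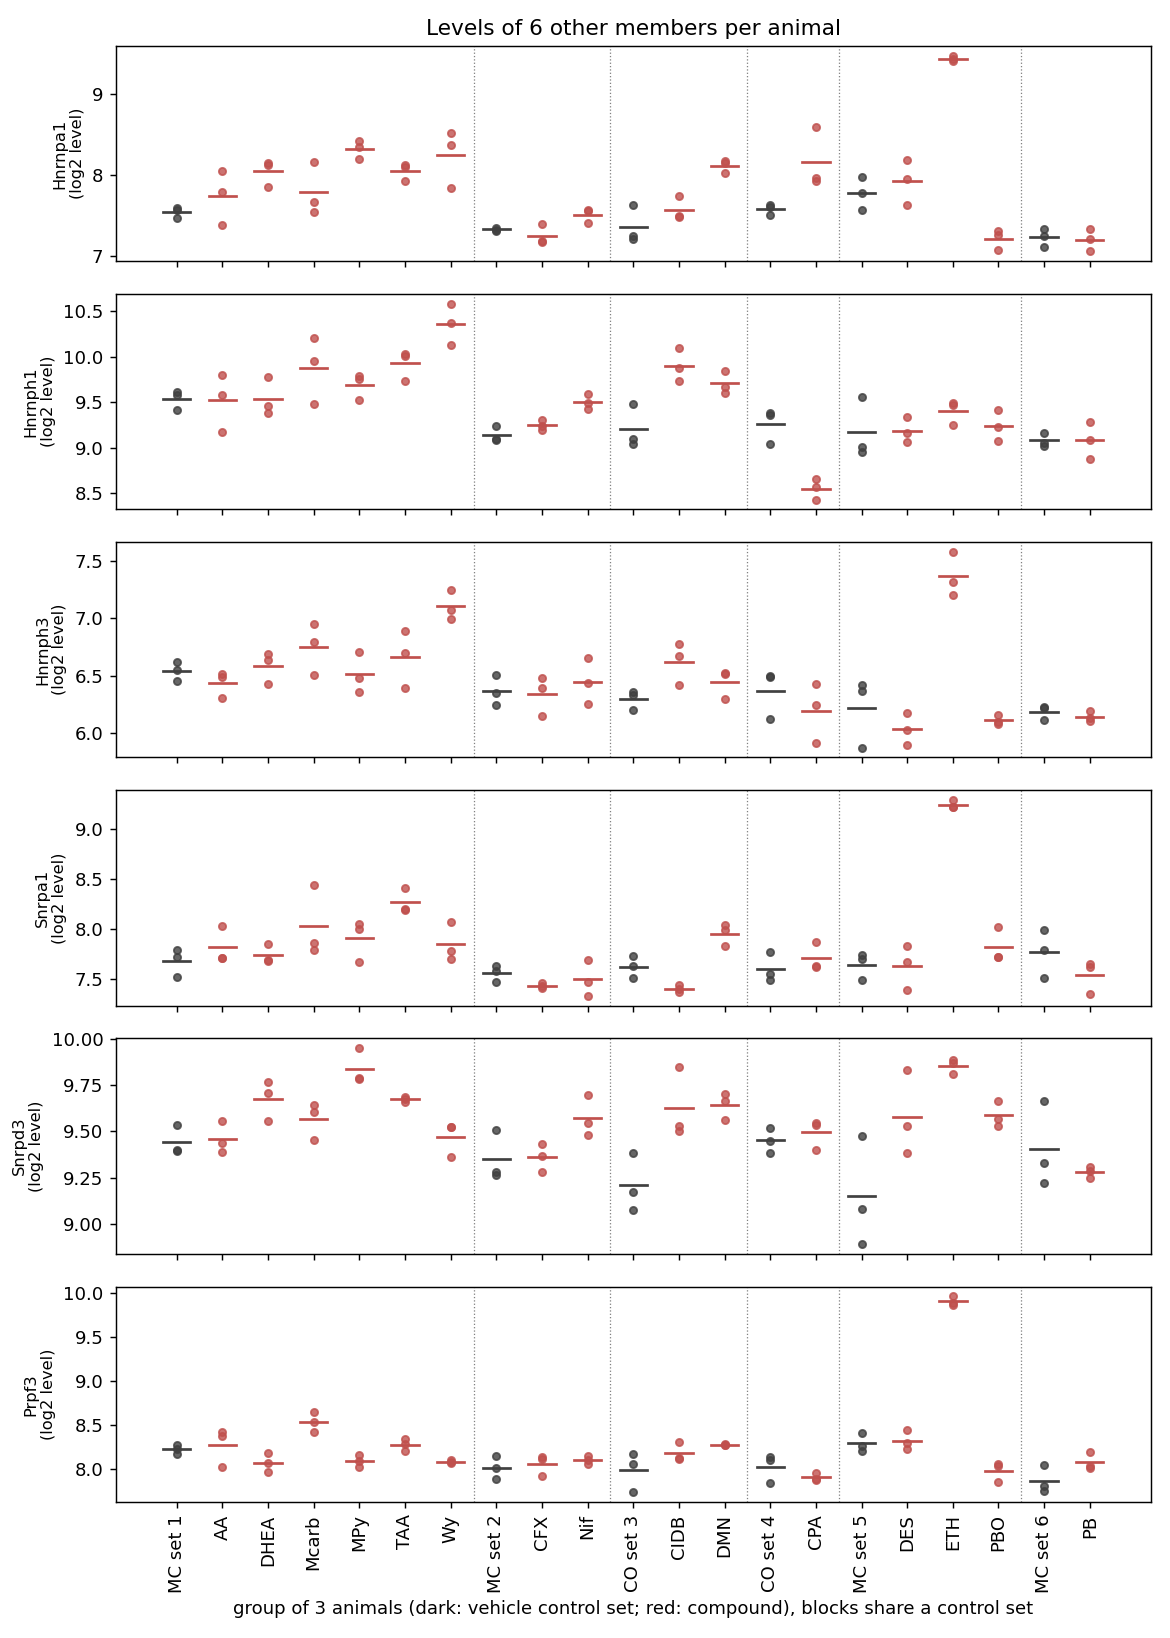
Log2 level per animal (points) and group mean (bar) of Hnrnpa1, Hnrnph1, Hnrnph3, Snrpa1, Snrpd3 and Prpf3 in all 21 groups of 3 animals, in blocks that share a control set. The ETH animals stand above all others for Hnrnpa1 (9.41 to 9.47), Snrpa1 (9.21 to 9.29) and Prpf3 (9.87 to 9.96), and the CPA animals below all others for Hnrnph1 (8.43 to 8.65).

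Among the U2 particle and U2AF proteins, which recognise the branch point and the 3′ splice site, Sf3b1 was the member with the largest response in Nif. Sf3b1 is the large scaffold that grips the branch point helix. Its levels were 9.44, 9.77 and 9.35 in Nif against 8.57, 8.81 and 8.80 in MC set 2, without overlap (0.79, SE 0.13, 1.73-fold, adjusted p = 2.39e-05). In DES they were 8.74, 8.80 and 9.02 against 8.52, 8.09 and 8.26 in MC set 5, again without overlap (0.57, SE 0.13, adjusted p = 0.00139), and both calls held without any 1 array. MC set 5 had the lowest Sf3b1 mean of the 4 MC sets (8.29, against 8.40 to 8.81 in the others), and against the pooled controls the DES call was lost (0.30, adjusted p = 0.0867), whereas that of Nif was kept at 0.96. Sf3b3 rose by 0.36 in CIDB (adjusted p = 0.0085, lost without CO set 3 animal 6 at 0.32) and Sf3b4 by 0.21 (adjusted p = 0.0461, lost whichever array was left out). In PBO Sf3a3 differed by 0.31 (adjusted p = 0.0166, lost without MC set 5 animal 9 at 0.14 or PBO animal 1 or 3 at 0.27) and Sf3b6, the branch point contact, by 0.29 (adjusted p = 0.0433, kept only without MC set 5 animal 7, and lost against the pooled controls at 0.21). U2af2, which binds the polypyrimidine tract, passed in no compound, and its differences lay between -0.058 and 0.19.

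Of the core snRNP proteins, Snrpd3 rose in 6 compounds and fell in none. Snrpd3 is one of the Sm proteins that form the ring on each spliceosomal snRNA. In ETH its levels were 9.81, 9.89 and 9.87 against 9.47, 8.90 and 9.08 in MC set 5 (0.70, SE 0.11, adjusted p = 1e-06), without overlap and in every fit without 1 array. Against the same controls it differed by 0.44 in PBO (adjusted p = 0.0027, lost without MC set 5 animal 8 at 0.31) and by 0.43 in DES with overlap (adjusted p = 0.00284, lost without DES animal 3 at 0.31 or MC set 5 animal 8 at 0.30). The 3 controls of MC set 5 had the lowest mean and a wide span here, and against the pooled controls the PBO and DES calls were lost (adjusted p = 0.0614 and 0.0643) while that of ETH was kept at 0.52. In DMN and CIDB it rose by 0.43 and 0.41 over CO set 3 (adjusted p = 0.0108 and 0.00471), the first lost without CO set 3 animal 5 (0.37) or 6 (0.41) or DMN animal 3 (0.40) and against pooled corn oil (adjusted p = 0.0661), and the second without CIDB animal 2 (0.30). In MPy the rise was 0.40 (levels 9.95, 9.79 and 9.78 against 9.54, 9.39 and 9.40, adjusted p = 0.0137), lost without MC set 1 animal 5 or 6 (0.37) or MPy animal 1 (0.34).

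Snrpa1, the U2 A′ protein, was at 9.22, 9.29 and 9.21 in ETH against 7.74, 7.70 and 7.49 (1.6, SE 0.13, 3.02-fold higher, adjusted p = 1.43e-13), and at 8.20, 8.41 and 8.18 in TAA against 7.72, 7.79 and 7.52 (0.59, SE 0.13, adjusted p = 0.00289). Treated and control animals did not overlap, and both calls held without any 1 array. Snrpa, the U1 A protein, fell in CIDB from 8.50, 8.29 and 8.38 to 8.12, 7.94 and 7.98 (-0.38, SE 0.098, adjusted p = 0.00563), which also held. Among the Sm proteins, Snrpd2 rose by 0.65 in DES (adjusted p = 0.000166, in every fit without 1 array) and differed by 0.40 in PBO (adjusted p = 0.0263, lost without MC set 5 animal 8 at 0.23 or PBO animal 1 or 2 at 0.42 or 0.36). Snrpe rose by 0.55 in Nif (10.39, 10.53 and 10.57 against 10.01, 10.04 and 9.78, adjusted p = 0.00439) and held there, whereas in DES it differed by 0.40 with overlap and was kept only without MC set 5 animal 7. Against the pooled controls Snrpd2 passed in DES at 0.41 (adjusted p = 0.00454) but not in PBO (0.16), and Snrpe did not pass in DES (0.25). Snrpb differed by -0.29 in ETH with overlap (adjusted p = 0.0301), lost without MC set 5 animal 7 (-0.15) or ETH animal 1 (-0.22) or 3 (-0.30).

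Prpf3, a protein of the U4/U6 particle, was the member with the smallest p-value of the series. Its levels were 9.96, 9.88 and 9.87 in ETH against 8.20, 8.26 and 8.41 in MC set 5 (1.61, SE 0.094, 3.06-fold higher, adjusted p = 1.14e-18). No other animal of the series came near the ETH animals, and the call held without any 1 array. A second probe set of the gene rose by 0.47 (adjusted p = 9.79e-05) and the third, a dim one, differed by -0.0042. Prpf19, a ubiquitin ligase of the catalytic spliceosome, rose in Nif (0.46, adjusted p = 0.00765) and PBO (0.41, adjusted p = 0.0119) without overlap and in MPy with overlap (0.40, adjusted p = 0.0283). The calls were lost without MC set 2 animal 10 (0.39) or Nif animal 2 (0.42), without MC set 5 animal 8 or PBO animal 2 (0.35), and without MC set 1 animal 4 (0.42) or 5 (0.23) or MPy animal 1 (0.36) or 2 (0.39). Prpf6, the bridge within the tri-snRNP, fell by 0.35 in PBO (adjusted p = 0.00125) without overlap and in every fit without 1 array, and differed by -0.22 in DES with overlap (adjusted p = 0.0484, kept only without DES animal 3 or MC set 5 animal 7). Prpf18, a second-step factor, differed there by -0.22 with overlap (adjusted p = 0.0377, kept only without DES animal 3 or MC set 5 animal 9). Against the pooled controls Prpf6 differed by -0.20 in PBO (adjusted p = 0.0533) and -0.070 in DES and Prpf18 by -0.165 in DES, and none of the 3 passed. Srrm1, a matrix protein that works with SR proteins, rose in Wy by 0.34 (adjusted p = 0.00748, lost without Wy animal 2 at 0.29).

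Comparison of the vehicle sets among themselves gives the level of difference that no compound accounts for. Among the 4 methylcellulose sets, all labelled 14 days, 17 of the 61 members (27.9%) differed by a moderated F test, beside 13% of all genes. Most of these differences separated set 1 or set 5 from set 6. Against set 6, set 1 had 12 members higher and none lower (4.67% and 2.66% of all genes), and set 5 had 9 higher and none lower (7.19% and 3.11%). Set 1 against set 2 gave 3 higher and none lower (0.413% and 0.384%), namely Akap8l (0.79), Ccnl2 (0.59) and Srsf2 (0.43), and set 1 against set 5 gave 1 higher, Sf3b1 (0.52), and none lower (0.759% and 1.21%). Set 2 against set 5 gave none higher and 1 lower (0.874% and 1.45%), Srsf2 (-0.35). Set 2 against set 6 gave 2 higher and 1 lower (1.29% and 0.567%), with Hnrnpa3 and Prpf8 higher (both 0.34) and Srsf10 lower (-0.30). Corn oil set 3 against set 4, which differ in days, gave none higher and 1 lower (0.154% and 0.154%), the lower one being Ccnl2 (-0.69, adjusted p = 0.014).

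Akap8l had set means of 8.97, 8.18, 8.50 and 8.01 in MC sets 1, 2, 5 and 6 (F test adjusted p = 0.000456), and Ccnl2 of 10.16, 9.57, 9.74 and 9.32 (adjusted p = 0.000622). Set 1 exceeded set 6 by 0.96 for Akap8l (adjusted p = 0.000416) and 0.84 for Ccnl2 (adjusted p = 0.000325), both without overlap and in every fit without 1 array. For Akap8l the difference of AA from set 1 was -1.1. Set 1 also exceeded set 6 by 0.57 for Hnrnpu, 0.75 for Srrm2, 0.67 for Ccnl1 and 0.47 for Tra2b, and set 5 exceeded set 6 by 0.49 for Prpf8 (adjusted p = 8.99e-05), 0.54 for Hnrnpa1 and 0.43 for Prpf3. The Srrm2 call was lost without MC set 6 animal 1 (0.51) or MC set 1 animal 4 or 6 (0.72), the Ccnl1 call whichever array was left out, the Tra2b call without MC set 1 animal 4 (0.42), and the Hnrnpa1 call without MC set 6 animal 1 (0.48) or MC set 5 animal 7 (0.44). Of the cell type lists, that of stellate cells and matrix was higher in set 1. Of its 13 genes 4 were higher than in set 2 (0.413% of all genes), 1 than in set 5 (0.759%) and 2 than in set 6 (4.67%). None was lower, and the mean level of the list was 7.93 to 8.01 in set 1 against 7.59 to 7.82 in the other 3 sets. Its part in these differences was not tested.

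The counts between control sets also changed in fits with 1 array left out. Without MC set 6 animal 1 or MC set 1 animal 4 the 12 calls of set 1 against set 6 became 6, and the 9 of set 5 against set 6 became 3 without MC set 6 animal 1 and 14 without MC set 5 animal 9. The 3 of set 1 against set 2 became none without MC set 1 animal 4 or MC set 2 animal 10 and 1 without MC set 1 animal 5 or MC set 2 animal 11. The 1 of set 1 against set 5 became 7 without MC set 5 animal 7 and none without MC set 1 animal 4 or 6 or MC set 5 animal 8 or 9. The 1 of set 2 against set 5 became none without MC set 5 animal 8 or MC set 2 animal 10 or 12 and 2 without MC set 5 animal 7 or 9, and the 3 of set 2 against set 6 became none without MC set 6 animal 1 or MC set 2 animal 10, 11 or 12 and 5 without MC set 6 animal 2. The corn oil call was kept only without CO set 3 animal 4 or CO set 4 animal 3.

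**Figure D5:**
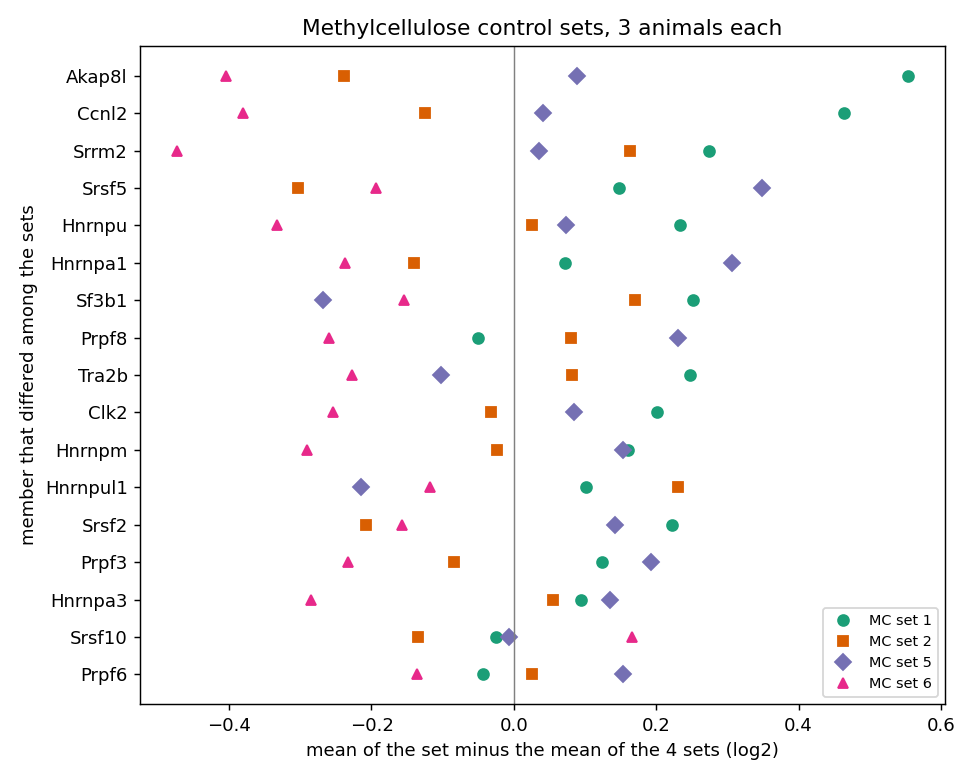
Mean log2 level of each methylcellulose control set (3 animals each, 1 symbol per set) minus the mean of the 4 sets, for the 17 members that differed among the sets by the F test. MC set 1 lies farthest to the right for Akap8l and Ccnl2 (set means 8.97 and 10.16), and MC set 6 lies farthest to the left for both (8.01 and 9.32).

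Pairs of compounds that share a control set and a duration were compared directly, and the doses differ in every pair, so that compound and dose cannot be told apart. Between the genotoxic carcinogens, CIDB was above DMN in 1 member and below it in 8 (5.98% of all genes above and 8.15% below). The one above was Hnrnpul1 (0.46, adjusted p = 0.0134). Below were Snrpa1 (-0.55, adjusted p = 0.00237), Hnrnpm (-0.55, adjusted p = 0.00304), Hnrnpa1 (-0.54, adjusted p = 0.0132), Snrpa (-0.40, adjusted p = 0.00342), Prpf19, Clk2, Prpf8 and Sf3b2 (-0.22 to -0.34), none with overlap. The calls of Snrpa1, Hnrnpm and Snrpa held without any 1 array, and the count of 9 became 5 without CIDB animal 1 or DMN animal 2 or 3. Between the non-hepatocarcinogens, Nif was above CFX in 7 members and below in none (4.34% and 2.68%). Sf3b1 was at 9.44, 9.77 and 9.35 in Nif and at 8.40, 8.69 and 8.47 in CFX, a difference of 1.0 (SE 0.13, adjusted p = 1.37e-07). Srsf9 (0.44, adjusted p = 0.0012) also held without any 1 array, while Srrm2 (0.64), Snrpe (0.48), Prpf19 (0.42), Hnrnpdl (0.35) and Srsf2 (0.32) did not. The 7 calls became 3 without CFX animal 1 or 2 and 2 without Nif animal 2.

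DES was above PBO in 4 members and below in none (5.77% and 7.82% of all genes), namely Hnrnpa1 (0.71, adjusted p = 0.000841), Sf3b1 (0.45), Srsf6 (0.43) and Prpf3 (0.34), without overlap. The Hnrnpa1 call held without any 1 array, and the count became 8 without DES animal 1, 2 without DES animal 2 or 3 and 1 without PBO animal 2. Acetamide, thioacetamid and methylcarbamate are small molecules with an amide, a thioamide and a carbamate group, and AA and Mcarb shared controls and days. Mcarb (400 mg/kg/d) was above AA (3000 mg/kg/d) in 3 members and below in none (2.62% and 2%). Akap8l was at 8.97, 8.69 and 8.54 in Mcarb against 7.72, 7.83 and 8.07 in AA (0.86, SE 0.17, adjusted p = 0.00115), Ccnl2 differed by 0.65 (adjusted p = 0.00482) and Srrm2 by 0.83 (adjusted p = 0.0122). The first 2 held without any 1 array, Srrm2 was lost without AA animal 2 (0.53) or Mcarb animal 1 (0.79) or 3 (0.75), and the count became 6 without Mcarb animal 2. Beside these, Akap8l in TAA (19.2 mg/kg/d, 7 days) differed by -0.30 from MC set 1 (adjusted p = 0.333), and Ccnl2 there fell by 0.67.

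DHEA was above AA in 3 members and below in none (8.4% and 6.9% of all genes), namely Sf3b5 (0.37), Prpf19 (0.35, with overlap) and Srsf10 (0.26). None of these held without every array in turn, and the count became none without AA animal 1 and 1 without DHEA animal 3. DHEA was above Mcarb in 1 member and below in 9 (9.51% and 12.8%). The one above was Sf3b5, a small SF3b subunit (0.47, adjusted p = 0.00559), and the lowest were Akap8l (-0.64, adjusted p = 0.00459), Ccnl1 (-0.59), Ccnl2 (-0.49, with overlap), Prpf3 (-0.46, adjusted p = 0.000222), Hnrnpm (-0.36) and Snrpb (-0.34). Those of Akap8l and Prpf3 held without any 1 array, and the count of 10 became 3 without DHEA animal 1, 6 without DHEA animal 3 and 5 without Mcarb animal 1. MPy was above TAA in 1 member and below in 1 (1.44% and 0.951%), Prpf19 (0.46, adjusted p = 0.0218) and Hnrnpc (-0.38, adjusted p = 0.00892). Both calls were lost without MPy animal 2 or TAA animal 3, and 1 was lost without MPy animal 1 or 3 or TAA animal 1.

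Other genes of the splicing pathway were read from a list of 161, of which 128 were measured and none is a member. In ETH 34 of the 128 rose and 11 fell (13.6% and 13.1% of all genes), with a median of 0.13. The largest rises were those of Tardbp, an RNA-binding repressor of cryptic exons (1.34), the cold-inducible Rbm3 (0.96) and Gemin4 of the SMN complex (0.89). The largest falls were those of Rbmx (-0.74), the muscleblind protein Mbnl2 (-0.62) and the cleavage factor Cpsf1 (-0.60). In PBO 6 rose and 14 fell (7.04% and 8.44% of all genes). Upwards they were led by Lsm10 (0.75), Magoh of the exon junction complex (0.62) and Lsm4 (0.59). Downwards they were led by Celf2 (-0.78), Son (-0.55), Cpsf4 and Syf2 (both -0.44). CIDB had 17 risen and 2 fallen (8.63% and 6.62% of all genes), Nif 15 and none (4.26% and 2.95%) and Wy 14 and none (7.67% and 7.38%). DES had 12 and 6 (6.79% and 9.99%), DHEA 9 and 7 (9.78% and 9.35%) and DMN 4 and none (2.88% and 0.855%). CPA had 1 and 4 (3.2% and 5.34%), AA none and 3 (1.82% and 1.95%) and MPy 3 and 1 (3.49% and 3.31%). TAA had 3 and 2 (3.6% and 3.68%) and PB 2 and 1 (0.999% and 0.509%). Mcarb (0.932% and 0.25%) and CFX (0% and 0%) had none.

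Genes of other cell types and of the cell cycle moved in several of the same groups. Of all genes, 13.6% rose in ETH, 7.67% in Wy, 3.49% in MPy, 6.79% in DES, 7.04% in PBO and 8.63% in CIDB. The shares fallen were 13.1% in ETH, 7.38% in Wy, 5.34% in CPA, 9.35% in DHEA and 6.62% in CIDB. In ETH 8 of 9 measured macrophage genes rose and 1 fell, with a mean level of the list of 10.22 to 10.28 against 9.04 to 9.58 in MC set 5, and 4 of 8 biliary genes rose (8.09 to 8.38 against 7.67 to 7.69). In Wy 21 of 26 proliferation genes rose (8.04 to 8.45 against 7.07 to 7.11), while 7 of 11 hepatocyte genes and 5 of 9 macrophage genes fell. Proliferation genes rose in MPy (10 of 26, 7.58 to 7.81 against 7.07 to 7.11) and DES (8 of 26, 7.34 to 7.78 against 6.96 to 7.05). In PBO 3 of 26 rose (7.01 to 7.54 against 6.96 to 7.05), beside 7.04% of all genes. In CPA 6 of 9 macrophage and 5 of 13 stellate and matrix genes fell, and in DHEA 7 of 9 macrophage and 6 of 13 stellate and matrix genes fell. In CIDB 5 of 5 erythroid genes fell (7.75 to 7.89 against 9.75 to 10.2), 4 of 9 macrophage genes rose and 1 fell, and 5 of 26 proliferation genes fell and 1 rose. The part of these cells in the members' differences was not tested.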

How the data were processed

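Liver mRNA of 63 rats, 3 in each of 21 groups, was measured on Affymetrix RAE230A arrays. The authors converted the scans with Affymetrix Microarray Suite and made RMA values (background correction, quantile normalization over arrays, probe summary) with the affy package, whose version is not given in the sources used here. The deposited values are log2 levels of 15866 probe sets, so quantile normalization removes any overall shift between arrays. Platform annotation gave 12783 probe sets 1 symbol, 312 several and 2771 none. The labels say methylcellulose, and the methods name both methylcellulose and carboxymethyl cellulose.

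Differences between group means were tested with limma 3.58.1 in R 4.3.3 (1 mean per group, all 63 arrays, 42 residual degrees of freedom, eBayes), with Benjamini-Hochberg adjustment over all 15866 probe sets and a threshold of 0.05. The script was tested on simulated data. With 3 animals against 3 an exact permutation test cannot go below p = 0.1, so none was used. The number of arrays limits the precision, and no 2 arrays held identical values.

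The members and lists were chosen with earlier results of these data known. Named in a comparison were all called members where up to 8 were called in a direction, otherwise the 6 with the largest change. The genes that the rule gives singly, the L cyclins, the 3 brightest and 3 dimmest members and the 6 members called in the most compounds were also named (6 genes tied for the last place, all named under their compounds), as were 3 other splicing genes per direction in ETH and PBO. Probe sets of Hnrnpu, Hnrnpa3 and Hnrnpa1 that disagreed, Tra2b in CPA and the genes never called were named after their values were seen. Alternatives were other arrays in the fit, array weights, trended and robust eBayes, quantile normalization, a filter on dim probe sets, the mean over a gene's probe sets, pooled controls, a replicate block, and each array left out.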

Additional observations from a re-analysis of the deposited data

Results flagged for a closer look

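Members differed between compounds that share a control set and a duration, by the direct test of the difference. Doses differ in each pair. CIDB and DMN differed in 9 members, led by Snrpa1 (-0.554, CIDB minus DMN). Nif and CFX differed in 7, led by Sf3b1, higher in Nif by 1 on the log2 scale. DES and PBO differed in 4, led by Hnrnpa1 (0.711, DES minus PBO). DHEA and AA differed in 3, led by Sf3b5 (0.374, DHEA minus AA), and this gene lost its call whichever of the 6 arrays was left out. Mcarb and AA differed in 3, led by Akap8l (0.859, Mcarb minus AA). DHEA and Mcarb differed in 10, led by Akap8l (-0.643, DHEA minus Mcarb). MPy and TAA differed in 2, led by Prpf19 (0.458, MPy minus TAA). Of all genes, 5.98% were above and 8.15% below for CIDB minus DMN. The shares were 4.34% and 2.68% for Nif minus CFX, and 5.77% and 7.82% for DES minus PBO. They were 8.4% and 6.9% for DHEA minus AA, and 2.62% and 2% for Mcarb minus AA. For DHEA minus Mcarb they were 9.51% and 12.8%, and for MPy minus TAA 1.44% and 0.951%. With 3 animals per group, no test for a single outlying animal was made.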

How the results depend on the processing

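No member named in a comparison changed sign under any alternative, and 36 of the 140 calls named for a member in a comparison were kept in all of them. Leaving out 1 array kept 554 of 840 such calls. The lowest and highest counts of members called without 1 array were 2 and 4 in AA, 0 and 0 in CFX, 6 and 15 in CIDB, 4 and 9 in CPA, 5 and 10 in DES, 3 and 6 in DHEA, 1 and 8 in DMN, 20 and 24 in ETH, 0 and 2 in Mcarb, 1 and 4 in MPy, 3 and 7 in Nif, 0 and 2 in PB, 7 and 16 in PBO, 3 and 6 in TAA and 4 and 9 in Wy. Between methylcellulose sets they were 0 and 4 (1 and 2), 0 and 7 (1 and 5), 6 and 11 (1 and 6), 0 and 2 (2 and 5), 0 and 5 (2 and 6) and 3 and 14 (5 and 6), and between corn oil sets 0 and 1. Between compounds they were 5 and 6 for CIDB and DMN, 2 and 7 for Nif and CFX, 1 and 8 for DES and PBO, 0 and 2 for DHEA and AA, 2 and 6 for Mcarb and AA, 3 and 15 for DHEA and Mcarb and 0 and 2 for MPy and TAA.

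Fitted on the 6 arrays compared alone, with fewer residual degrees of freedom, the counts were 5 in CPA, 4 in DES and 5 in PBO, 1 for methylcellulose sets 1 and 2 and for sets 1 and 6, and 0 for sets 1 and 5, 2 and 5, 2 and 6 and 5 and 6 and for the corn oil sets. They were 1 for DHEA and AA, 0 for Mcarb and AA, 5 for DHEA and Mcarb and 1 for MPy and TAA. With array weights (0.306 to 4.85) they were 7 in AA, 24 in CIDB, 20 in DMN, 2 in Mcarb, 7 in MPy and 14 in Nif, 9 for sets 1 and 2, 4 for sets 1 and 5, 3 for sets 2 and 5, 1 for sets 2 and 6, 3 for sets 5 and 6 and 6 for the corn oil sets, and 7 for DES and PBO and 5 for Mcarb and AA. After quantile normalization they were 4 in AA, 1 in Mcarb, 3 for sets 2 and 5, 0 for sets 2 and 6, 10 for DES and PBO and 5 for DHEA and AA. Without the dimmest 25% of probe sets, which removed Prpf38a and Srsf10, they were 1 in PB and 4 for sets 2 and 5. With the mean over a gene's probe sets they were 4 in AA, 1 in PB, 2 for sets 1 and 5 and 0 for sets 2 and 5. Against the controls pooled by vehicle they were 15 in CIDB, 9 in DHEA, 14 in Mcarb, 12 in Nif, 2 in PB, 7 in PBO and 24 in Wy. Shares of all genes were taken for the pooled controls alone, and are given above with those results. For the other settings, array weights and left-out arrays among them, a change in these counts cannot be told from a change over all genes. The cause of these changes was not tested beyond the fewer arrays. Replicate numbers did not pair the samples: deviations of same-numbered animals correlated at -0.286 to 0.223 for Mcarb and AA, and in no comparison were all correlations above 0.1. With the number as a replicate block the counts were 1 for DHEA and AA, 0 for Mcarb and AA, 3 for DHEA and Mcarb and 1 for MPy and TAA.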
